A study of Mus musculus with 6 samples.

Results

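The genes described here are the matrix metalloproteinases (Mmp), the ADAM and ADAMTS metalloproteinases with the ADAMTS-like proteins, and their tissue inhibitors (Timp). They were taken by symbol from the count table, as every row that starts with Mmp and a digit, Adam and a digit, Adamts, or Timp and a digit, leaving out pseudogene symbols that hold -ps. This gave 65 of the 22377 genes in the table, namely 21 Mmp, 20 Adam, 15 Adamts, 5 Adamtsl and 4 Timp genes. The RNA came from Lewis lung carcinoma (LLC) tumors, a transplantable mouse lung cancer line, grown under the skin of male and female mice injected at 6 to 8 weeks of age and killed 2 weeks later. Per the methods of the study, macrophages positive for CD45, CD11b and F4/80 were sorted from the tumors of Npm1+/+ and Npm1+/- mice, the latter carrying a single working copy of Npm1, which encodes nucleophosmin, in all cells. The labels differ from this description. They give the source as tumor tissue, name the groups wt and ko, and give the treatment as wt and knockdown. The 6 libraries are therefore called the 3 wt libraries and the 3 libraries labelled ko. The labels speak of replicate biosamples without tying each to a mouse, and the study names fewer mice per group for its RNA-seq than there are libraries here. Whether libraries share a mouse is not known, so the p-values measure only the spread between these libraries, which may be technical in part.

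Matrix metalloproteinases are zinc enzymes that are made as inactive proenzymes and that together cut nearly every protein of the extracellular matrix. ADAMs sit in the plasma membrane, where the active ones cut the ectodomains of cytokines, growth factors and receptors, a step called shedding, while ADAMTS enzymes are secreted and cut proteoglycans and procollagens. TIMPs bind the active site and hold these enzymes in check. In tumors both macrophages and fibroblasts make members of these families, and myeloid cells are a known source of Mmp8, Mmp9, Mmp12 and Adam8.

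Each library held between 36550775 and 38147320 counted reads. Npm1, the gene that separates the groups, had 142, 380.2 and 381 CPM (read counts scaled to library size) in the wt libraries and 441, 499 and 343 CPM in the libraries labelled ko, so it was not lower under the ko label (log2 fold change 0.51, SE 0.36, edgeR adjusted p = 0.436). Every direction below therefore refers to the labels. On the first principal component, which held 67.99% of the variance, wt replicate 1 stood at -108 and the other libraries between -4.54 and 52.0. That library had the lowest value of all 6 for 33.5% of the tested genes and the highest for 33%. Defining macrophage markers were abundant in every library, with a sum over the 12 listed genes of 16992 to 22371 CPM in wt and 10096 to 16796 CPM in ko, of which Lyz2 made up 58.4%. Of these 12 genes, 7 had an unadjusted p below 0.05 and a lower ko level, and their median log2 fold change was -0.54. Markers of other cells were present as well. The 10 fibroblast markers summed to 32.7 CPM in wt replicate 1, 491 and 305 CPM in the other wt libraries, and 369 to 715 CPM in ko. The 10 neutrophil markers summed to 1696 to 1910 CPM in wt and 733 to 1481 CPM in ko. Sums were 36.1 to 138 against 129 to 192 CPM for epithelial or carcinoma markers, 32.7 to 40.1 against 30.1 to 34.0 CPM for endothelial markers, 18.7 to 79.3 against 60.3 to 167 CPM for T cell markers and 214 to 366 against 238 to 339 CPM for dendritic cell markers, wt first. None of the listed markers was at 0 in every library. In RNA pooled from many cells, fewer cells of a type and less RNA per cell cannot be told apart.

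Of the 65 members, 38 had enough reads to be tested and 20 were well counted, meaning at least 50 counts in every library. These 20 were 7 Mmp, 6 Adam, 3 Adamts, 2 Adamtsl and 2 Timp genes. A further 18 were tested on lower counts, and 27 were not tested, with no more than 30 counts in any library. Of the untested, 8 never passed 3 counts in any library, which is the limit used here for absence of a call and equals 0.0716 to 0.0846 CPM (counting error only). These 8 were Adam5, Adam6b, Adam28, Adamts13, Adamts15, Adamtsl1, Mmp20, which encodes the enzyme of tooth enamel, and Timp4.

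A cluster of 10 Mmp genes lies on chromosome 9, from 7272514 to 7699585 (mm10, annotated with GENCODE M21), a stretch of 427 kb with the order Mmp13, Mmp12, Mmp1b, Mmp3, Mmp1a, Mmp10, Mmp8, Mmp27, Mmp20 and Mmp7. Of these 10 neighbours only 3, Mmp13, Mmp12 and Mmp8, were well counted. The upstream sequence of 3 of them is shown because they share the same short motifs and yet were counted at very different depths (1747 to 3742 reads per library for Mmp13, 8 to 225 for Mmp3 and 5 to 23 for Mmp10), together with that of Adamts1, a member from another chromosome discussed further on. Each is the 120 bases before the RefSeq transcription start (GRCm38.p6), written 5′ to 3′ on the strand of the gene. Capitals mark the TATA box letters TATAAA and the AP-1 letters TGANTCA, AP-1 being the Fos and Jun factor that acts on several Mmp promoters. The windows lie at chr9:7272394-7272513 on the plus strand for Mmp13, chr9:7445702-7445821 on the plus strand for Mmp3, chr9:7502222-7502341 on the plus strand for Mmp10 and chr16:85803114-85803233 on the minus strand for Adamts1.
Mmp13: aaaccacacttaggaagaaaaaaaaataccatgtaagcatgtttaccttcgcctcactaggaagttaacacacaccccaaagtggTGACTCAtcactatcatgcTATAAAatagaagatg
Mmp3: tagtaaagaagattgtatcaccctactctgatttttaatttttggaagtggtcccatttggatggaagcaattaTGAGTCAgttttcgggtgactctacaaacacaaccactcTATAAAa
Mmp10: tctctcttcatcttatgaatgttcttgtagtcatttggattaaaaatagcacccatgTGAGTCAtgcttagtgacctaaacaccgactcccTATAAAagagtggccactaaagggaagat
Adamts1: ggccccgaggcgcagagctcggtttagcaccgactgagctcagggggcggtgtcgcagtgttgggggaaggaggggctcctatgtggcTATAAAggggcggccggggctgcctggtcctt
TATAAA begins 16 bases before the start in Mmp13, 7 in Mmp3, 29 in Mmp10 and 32 in Adamts1. TGANTCA begins 35, 46 and 63 bases before the start in the 3 Mmp genes and was not found in the Adamts1 window. Over windows of 250 bases before to 50 after the start, searched on both strands, TATAAA was present in 9 of the 10 chromosome 9 genes, in 3 of the 33 other members with a RefSeq promoter entry and in 13.6% of all 32851 promoters. TGANTCA was present in 8 of these 10 genes, in 1 of the 33 others (Adam19) and in 7.81% of all promoters. TTCNNNGAA, the letters bound by STAT factors, was searched because the study concerns STAT3. It was present in none of the 10 chromosome 9 genes, in 2 of the 33 others (Adam21 and Mmp23) and in 8.3% of all promoters. A match is a description of letters and not of binding.

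The levels were led by a few myeloid genes. Adam8, a sheddase of leukocytes, had the highest level per length, at a mean of 357 FPKM (fragments scaled to transcript length and library size) over the 6 libraries, which was 35.8% of the summed FPKM of all members and 65% of that of the Adam genes. Mmp19, a secreted enzyme that cuts basement membrane proteins, followed at 137 FPKM and held 35.4% of the Mmp sum. Mmp8 (66.4 FPKM), the neutrophil collagenase, Adam15 (61.3), a membrane protease, Mmp12 (57.0), the macrophage elastase, and Mmp14 (55.5), a membrane-type enzyme that activates pro-Mmp2, came next. Adam9, Adam17 and Adam10, the sheddases with the widest known range of substrates, stood at 48.7, 44.2 and 32.2 FPKM. Mmp9, or gelatinase B, stood at 30.7 FPKM and Mmp13, the main interstitial collagenase of the mouse, at 27.5 FPKM. The inhibitors Timp2 and Timp1 stood at 21.7 and 19.2 FPKM, whereas Timp3 was at 0.0935 FPKM. The secreted proteoglycanases were far lower, with Adamts1 at 2.89, Adamts4 at 1.20 and Adamts5 at 0.00702 FPKM. By family, the summed level per library was 340.3 to 447 FPKM for Mmp, 457 to 618 for Adam, 11.5 to 22.2 for Adamts, 5.13 to 7.06 for Adamtsl and 24.5 to 49.3 for Timp genes.

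**Figure D1:**
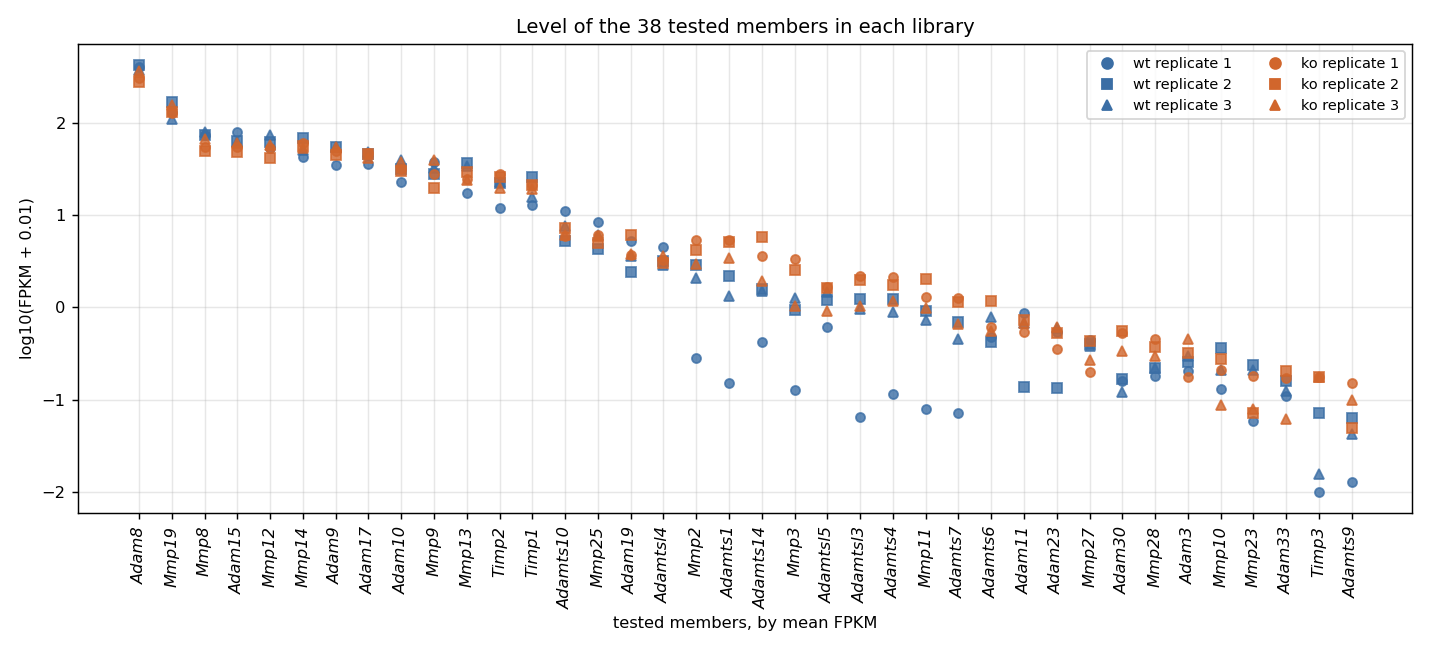
Level of each of the 38 tested members in each library, as log10 of FPKM plus 0.01, with the genes ordered by their mean FPKM. Color gives the group and marker shape the replicate number. Adam8 leads in every library, the first 13 genes from Adam8 to Timp1 lie close together across libraries, and the circles of wt replicate 1 drop away from the rest at, among others, Mmp2, Adamts1, Adamts14, Mmp3, Adamtsl3, Adamts4, Mmp11 and Adamts7.

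The question for the comparison of the 2 groups was whether any of these proteases or inhibitors differed in RNA level between wt libraries and libraries labelled ko. None of the 38 tested members differed at an adjusted p below 0.05 (edgeR quasi-likelihood test, adjusted over 13884 genes), and the smallest adjusted p of a member was 0.328. The same held for the whole table, in which 0 of the 13884 genes (0%) passed. At an unadjusted p below 0.05, 4 members had a higher ko level (Adam30, Adamts14, Timp3 and Adamts1), where 6.9% of all tested genes did, and 3 a lower one (Mmp8, Adam8 and Adam15), where 8.31% did. DESeq2 called 36 of 13699 genes (0.263%) and no member, and its smallest adjusted p for a member was 0.0993, for Adam30. Complete separation of the wt from the ko libraries, higher in ko, was seen in 6 members, the 4 above with Mmp11 and Mmp28, against 13.3% of all tested genes, and lower in ko in 4 members, Adam8, Mmp8, Adam15 and Mmp27, against 12.6%. With 3 libraries a group, the smallest p that a two-sided exact permutation test of 1 gene can give is 0.1. The median log2 fold change of the 38 members was 0.05, and that of all tested genes was 0.02. The well counted and the low members had different medians. Of the 20 well counted members 14 had a lower ko estimate, with a median of -0.11, and of the 18 low members 14 had a higher one, with a median of 1.03. A low gene can pass the read filter through whichever group is higher, so the second median describes only those that passed. The class itself also depends on wt replicate 1. Mmp2, Adamts1, Adamtsl3, Adamts4 and Adamts7, among others, were low only through that library, where they had 33, 26, 16, 25 and 22 counts. Of the 18 low members 11 had their lowest value there, so the 2 medians are not read as a result about low members.

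**Figure D2:**
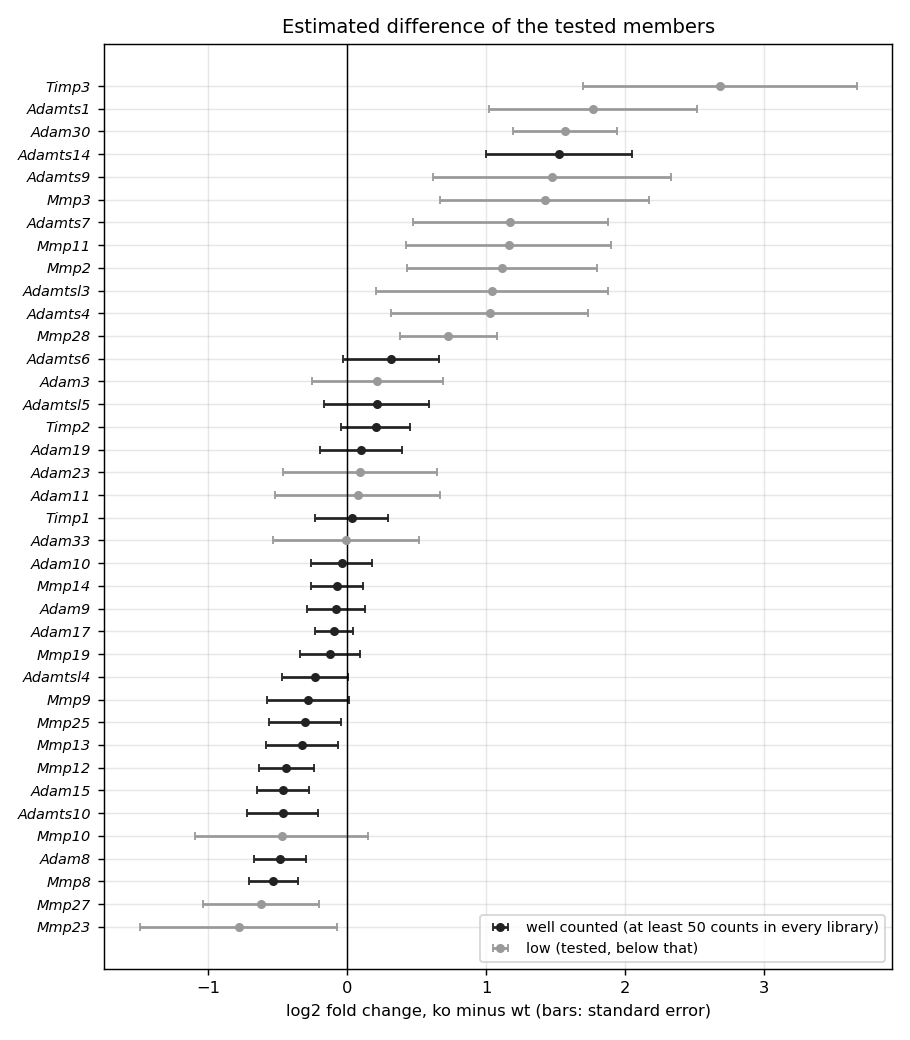
Estimated log2 fold change, ko minus wt, of the 38 tested members with bars of 1 standard error; dark points are the 20 well counted members and grey points the 18 low ones. Among the well counted members, the estimates lie between -0.53 for Mmp8 and 0.32 for Adamts6 except for Adamts14 at 1.52, and the high estimates with wide bars belong to low members, with Timp3 at 2.68 on top.

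Among the collagenases, which cut fibrillar collagen, Mmp8 had 192, 195 and 199 CPM in the wt libraries and 129, 106 and 170.3 CPM in the libraries labelled ko. All ko values lay below all wt values, and ko replicate 3 came nearest to wt. The log2 fold change was -0.53 (SE 0.18, adjusted p = 0.328). Mmp13 had 49.1, 105 and 91.7 CPM in wt and 63.0, 67.8 and 65.7 CPM in ko. Here wt replicate 1 was the lowest library and the other wt libraries were the highest, so the groups overlapped at a log2 fold change of -0.33 (SE 0.26, adjusted p = 0.472). Without wt replicate 1 the estimate for Mmp13 was -0.59 and its unadjusted p was below 0.05, at an edgeR adjusted p of 0.406. The other collagenases, Mmp1a and Mmp1b, reached at most 6 counts in a library.

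Of the gelatinases, which cut denatured collagen and collagen IV, Mmp9 had 153, 113 and 124 CPM in wt and 102, 64.6 and 155 CPM in ko, a log2 fold change of -0.28 (SE 0.30). Its lowest and its highest value both fell in the ko group. Mmp2 had 0.928, 9.81 and 6.68 CPM in wt and 16.3, 11.7 and 9.71 CPM in ko, on 33 to 641 counts. The ko replicate 3 value lay just under that of wt replicate 2, and the log2 fold change was 1.11 (SE 0.69, adjusted p = 0.393). Mmp12 had 213, 250.5 and 286 CPM in wt and 193, 138 and 222 CPM in ko. Only ko replicate 3 and wt replicate 1 crossed, at a log2 fold change of -0.44 (SE 0.20, adjusted p = 0.331). The Mmp12 gene overlaps Mmp1b on the opposite strand, and strand use in counting is not given in the sources used here.

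The membrane-type enzymes and Mmp19 showed no separation of the groups. Mmp14 had 175, 278 and 197 CPM in wt and 221, 186 and 212 CPM in ko, with an estimate of -0.07 (SE 0.19). Mmp25, a membrane-anchored enzyme of leukocytes, had 42.1, 21.4 and 28.6 CPM in wt and 26.8, 19.9 and 28.0 CPM in ko, with an estimate of -0.30 (SE 0.26). Mmp19 had 481, 621 and 387 CPM in wt and 417, 390.0 and 559.9 CPM in ko, with an estimate of -0.12 (SE 0.22). In these 3 genes the ko values lay within the range of the wt values, except for Mmp25 in ko replicate 2. The remaining membrane-type genes, Mmp15, Mmp17 and Mmp24, had at most 15 counts in a library.

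The stromelysins Mmp3 and Mmp10 have broad substrates and activate other proenzymes. Mmp3, or stromelysin-1, had 0.225, 1.80 and 2.30 CPM in wt and 5.72, 3.99 and 1.91 CPM in ko, a log2 fold change of 1.42 (SE 0.75, adjusted p = 0.356). The first 2 ko libraries were the highest of the 6, and ko replicate 3 fell between the wt libraries. Mmp11, a stromelysin known from fibroblasts around carcinomas, had 0.169, 2.23 and 1.66 CPM in wt and 2.77, 3.99 and 2.32 CPM in ko. Its groups did not overlap, by a narrow margin, and its log2 fold change was 1.16 (SE 0.74, adjusted p = 0.400). Mmp10 stayed at 5 to 23 counts, too few to place it. Among the other low Mmp genes, Mmp28, or epilysin, had 0.703, 0.874 and 0.829 CPM in wt and 1.63, 1.22 and 1.15 CPM in ko (log2 fold change 0.73, SE 0.35, edgeR adjusted p = 0.335). Mmp27 had 0.984, 0.902 and 0.802 CPM in wt and 0.382, 0.788 and 0.574 CPM in ko (log2 fold change -0.62, SE 0.42, edgeR adjusted p = 0.418). Both were without overlap, on no more than 64 counts in a library.

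Adam8 had 1823, 1883 and 1588 CPM in wt and 1216, 1019 and 1557 CPM in ko, on at least 42697 counts in every library. The groups did not overlap, although ko replicate 3 came close to wt replicate 3, and the log2 fold change was -0.48 (SE 0.19, adjusted p = 0.328). Adam15 had 258, 205 and 191 CPM in wt and 159, 126 and 190.5 CPM in ko. Its groups touched at their replicates 3, and its log2 fold change was -0.46 (SE 0.19, adjusted p = 0.328). Without wt replicate 1 the estimates were -0.32 for Adam15, -0.46 for Adam8 and -0.55 for Mmp8, and of these only Mmp8 kept an unadjusted p below 0.05 (edgeR adjusted p of 0.458, 0.416 and 0.406).

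The broad sheddases lay close together in both groups. Adam17, which releases TNF from the cell surface, had 175, 223 and 221 CPM in wt and 204, 182 and 195 CPM in ko, with the smallest standard error of the members named (log2 fold change -0.09, SE 0.13). Adam10, which cleaves Notch receptors, had 116, 160.5 and 188 CPM in wt and 144, 124 and 185 CPM in ko (log2 fold change -0.04, SE 0.22). Adam9 had 162, 256 and 243 CPM in wt and 204, 173 and 248 CPM in ko (log2 fold change -0.08, SE 0.21). In these 3 genes wt replicate 1 was the lowest library, and all ko values lay inside the wt range. Adam19, a sheddase of neuregulins, had 39.9, 18.5 and 26.0 CPM in wt and 24.8, 37.8 and 27.8 CPM in ko (log2 fold change 0.10, SE 0.29).

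Adam30, an ADAM known mainly from the testis, had the smallest unadjusted p of the members, 0.00357, on low counts. It had 20, 21 and 15 counts in wt and 69, 70 and 44 counts in ko, or 0.562, 0.592 and 0.401 against 1.76, 1.67 and 1.20 CPM. All ko values lay above all wt values, and the log2 fold change was 1.57 (SE 0.38, adjusted p = 0.328). The 3 male germ cell markers in the table summed to at most 0.229 CPM in any library and none was tested. On chromosome 3 Adam30 starts 10269 bases after the end of Notch2 on the same strand, and Notch2, at 419 to 617 CPM, had a log2 fold change of -0.35.

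**Figure D3:**
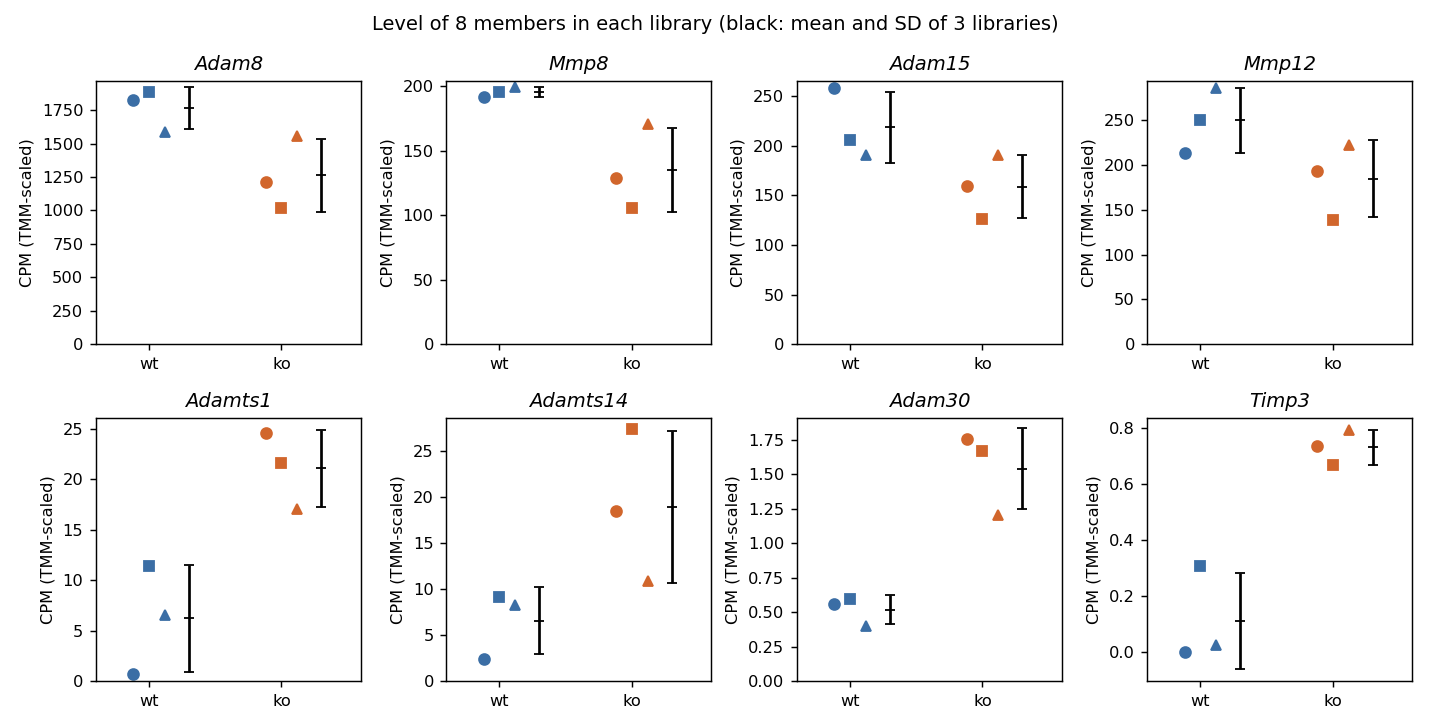
Level in each library, in CPM scaled by TMM factors, of Adam8, Mmp8, Adam15 and Mmp12 (top) and Adamts1, Adamts14, Adam30 and Timp3 (bottom); circles, squares and triangles are replicates 1, 2 and 3, and black bars give mean and SD of 3 libraries. In the top row the ko triangle stands nearest to wt, and in the bottom row all ko points lie above all wt points.

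Adamts1 and Adamts4 cut the large proteoglycans versican and aggrecan. Adamts1 had 0.731, 11.4 and 6.50 CPM in wt and 24.6, 21.6 and 17.0 CPM in ko, on 26 to 968 counts. All ko libraries were above all wt libraries, wt replicate 1 was far below the other wt libraries, and the log2 fold change was 1.77 (SE 0.75, adjusted p = 0.328). Without wt replicate 1 it was 1.24 (edgeR adjusted p = 0.406). Adamts4 had 0.703, 8.29 and 5.64 CPM in wt and 12.8, 9.48 and 7.55 CPM in ko. Its groups overlapped, at a log2 fold change of 1.03 (SE 0.71, adjusted p = 0.426), and without wt replicate 1 the estimate was 0.51. Adamts5, the other main aggrecanase, had 1, 2 and 0 counts in wt and 7, 2 and 1 counts in ko and was not tested.

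Adamts14 removes the N-propeptide of procollagens and was the one well counted member with a large positive estimate. It had 2.39, 9.10 and 8.23 CPM in wt and 18.5, 27.4 and 10.9 CPM in ko, on 85 to 1149 counts. No ko value fell below a wt value, and the log2 fold change was 1.52 (SE 0.52, adjusted p = 0.328). Without wt replicate 1 it was 1.12 (edgeR adjusted p = 0.406). The other procollagen N-proteinases, Adamts2 and Adamts3, had at most 8 counts in a library.

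Adamts10 acts on the fibrillin microfibril and made up 47% of the summed FPKM of the Adamts genes. It had 62.9, 30.0 and 41.2 CPM in wt and 29.8, 33.7 and 33.8 CPM in ko, a log2 fold change of -0.46 (SE 0.25, edgeR adjusted p = 0.361). Here wt replicate 1 was the highest library, and the estimate without it was -0.14. Adamts6 had 4.16, 3.69 and 6.66 CPM in wt and 4.83, 8.52 and 4.73 CPM in ko (log2 fold change 0.32, SE 0.35). Adamtsl4 and Adamtsl5, matrix proteins of this family that lack the protease domain, had estimates of -0.23 (SE 0.24) and 0.21 (SE 0.38), with 11.1 to 20.2 CPM and 2.00 to 4.96 CPM over the 6 libraries, and the groups overlapped in both.

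The inhibitors differed among themselves in how well they were counted. Timp2, which inhibits MMPs and also helps Mmp14 activate pro-Mmp2, had 45.8, 86.9 and 84.1 CPM in wt and 96.2, 81.4 and 72.6 CPM in ko (log2 fold change 0.21, SE 0.25). Timp1, the inducible soluble inhibitor, had 12.1, 24.4 and 14.1 CPM in wt and 18.0, 16.2 and 17.5 CPM in ko (log2 fold change 0.03, SE 0.27). In both, wt replicate 1 was the lowest library and the groups overlapped. Timp3, which is bound to the matrix and inhibits Adam17, had 0, 11 and 1 counts in wt and 29, 28 and 29 counts in ko. The ko libraries were nearly equal and all above wt, and the fitted log2 fold change was 2.68 (SE 0.99, adjusted p = 0.328). The estimate was 2.69 with DESeq2. It was 5.44 without wt replicate 2, which leaves wt libraries of 0 and 1 counts. Timp3 lies within Syn3, a gene on the other strand, so that reads of the pair are not separable without strand. Timp4 had 0, 0 and 0 counts in wt and 2, 1 and 0 counts in ko.

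Several members were far lower in wt replicate 1 than in the other wt libraries. With a ratio over 3, a limit set after the values were seen, 9 tested members stood out, 8 of them with a higher ko estimate. The mean of the other wt libraries over wt replicate 1 was 19.4 for Adamtsl3, 12.2 for Adamts1, 11.5 for Mmp11, 9.91 for Adamts4, 9.12 for Mmp3, 9.06 for Adamts7, 8.89 for Mmp2, 4.21 for Mmp23 and 3.63 for Adamts14. Mmp23, on 5, 23 and 20 counts in wt and 17, 6 and 7 in ko, was the one with a lower ko estimate (log2 fold change -0.78, SE 0.71). A further 2 members, Adamts9 with 1 count and Timp3 with 0 counts, were at the floor in wt replicate 1 and are given no ratio. For Adam8, Mmp19, Mmp8 and Adam15 the same ratio was 0.952, 1.05, 1.03 and 0.767. In all, 20 of the 38 tested members had their lowest value in wt replicate 1 and 7 their highest, where all tested genes gave 33.5% and 33%. The summed fibroblast markers, of which Col3a1 made up 82.2%, were also lowest in wt replicate 1, with a spread of 21.9-fold between the highest and the lowest library. One by one, 7 of the 10 markers were lowest there, while Col1a1, Col1a2 and Postn, at no more than 5.52 CPM, were lowest in wt replicate 3. The epithelial or carcinoma markers gave sums of 36.1, 138 and 80.4 CPM in wt and 192, 183 and 129 CPM in ko. This is the same order of the 6 libraries as the fibroblast sums. It is also the order of Krt8 alone, at 9.90, 117 and 59.1 CPM in wt and 171, 165 and 105 CPM in ko. Of the 4 markers tested, Krt8 and Krt18 had higher ko estimates (1.25 and 0.76). Cdh1 and Krt7 had lower ones (-0.41 and -1.03), and Cdh1 was highest in wt replicate 1. Epcam, Krt19 and Cldn4 were too low to be tested. At an unadjusted p below 0.05, 3 fibroblast markers had a higher ko level, Fap (log2 fold change 1.71), Col1a1 (1.82) and Col1a2 (1.96). The median over the fibroblast list was 1.35.

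**Figure D4:**
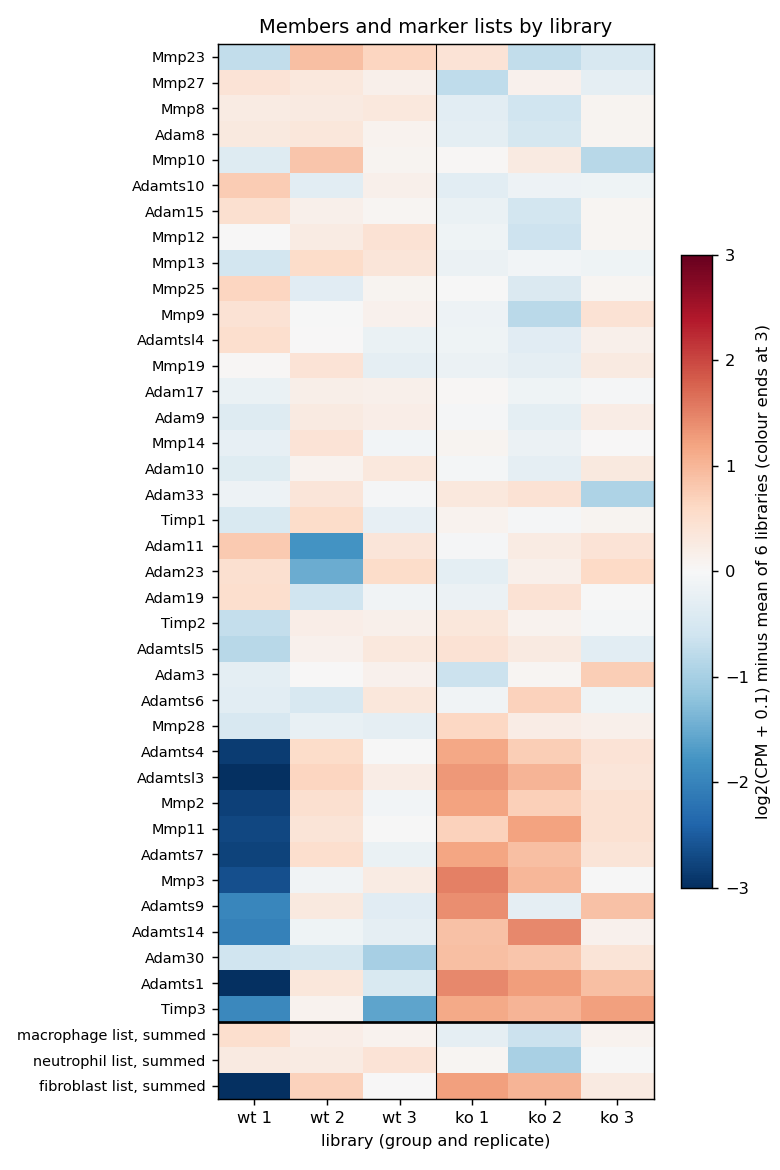
Each tested member and 3 summed marker lists (rows) in each library (columns), as log2 of CPM plus 0.1 minus the mean of the 6 libraries, with red above and blue below that mean. The rows are ordered by log2 fold change. The lower block from Adamts4 to Timp3 shows blue cells in wt replicate 1 as the summed fibroblast row does. For Adam30 they are paler and lie in every wt library, and for Timp3 wt replicate 3 is blue as well. The Adam8, Mmp8 and Adam15 rows, like the macrophage and neutrophil rows, are lower in every ko library than in every wt library.

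Each level was then divided by the summed CPM of the fibroblast list in the same library, which was chosen after the values had been seen. Mmp2 then stood at 28.4, 20.0 and 21.9 CPM per 1000 CPM of the list in wt and 22.8, 19.0 and 26.3 in ko, a spread of 1.49-fold between the highest and lowest library. Adamts4 and Adamts7 spread 1.39-fold and 1.36-fold, and Mmp11, Adamtsl3 and Mmp3 spread 1.67-fold, 1.77-fold and 2.18-fold. On this scale the groups of these 6 members overlapped. Adamts1 stood at 22.4, 23.1 and 21.3 in wt, which includes wt replicate 1, and at 34.5, 35.2 and 46.2 in ko. The ko mean was 1.73 times the wt mean and the groups stayed apart. With each of the 10 markers taken alone as the divisor the Adamts1 groups stayed apart for 4 and overlapped for the others. Timp3 stayed apart for 6 of the 10 markers. Adamts14, at 73.1, 18.5 and 27.0 in wt and 25.8, 44.6 and 29.5 in ko, overlapped and spread 3.94-fold. The part of fibroblast or carcinoma RNA in the higher ko levels was not tested beyond these values.

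**Figure D5:**
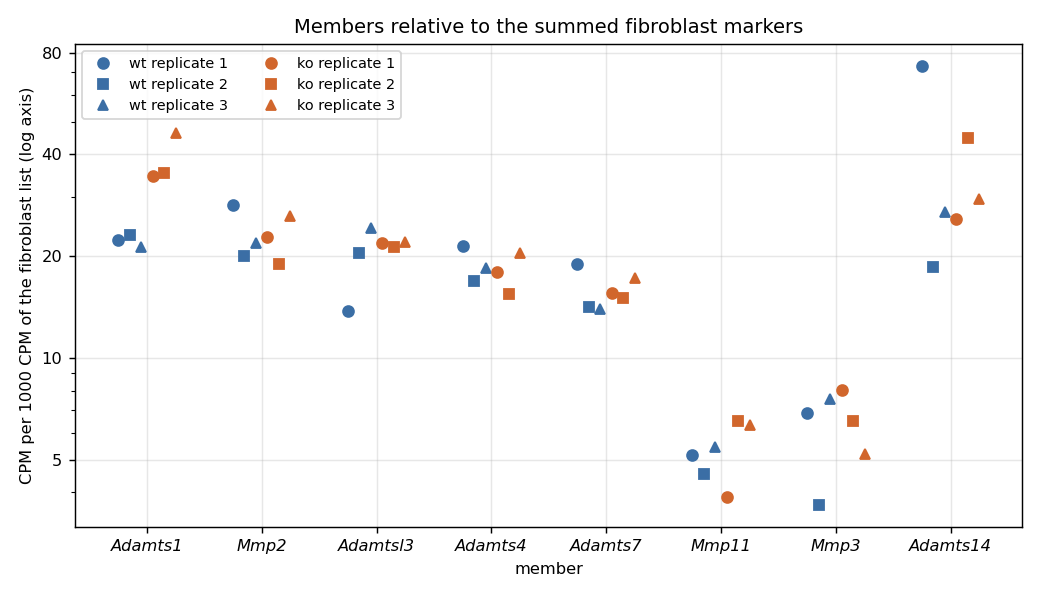
Level of 8 members per 1000 CPM of the summed fibroblast markers of the same library, on a log axis; blue is wt, orange is ko and the marker shape gives the replicate. The Adamts1 points form a wt group near 22 and a ko group from 34.5 to 46.2, whereas for Mmp2, Adamts4 and Adamts7 the groups lie on top of each other.

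Adam8, Adam15 and Mmp8, and the summed macrophage and neutrophil lists, were each lower in every ko library than in every wt library. Within ko these 3 members and the macrophage list were highest in replicate 3, but the neutrophil list in replicate 1. Within wt, Mmp8 and the macrophage list ran in opposite orders. No level was divided by the neutrophil list. Adam15 stood at 11.5, 11.4 and 11.2 CPM per 1000 CPM of the macrophage list in wt and 12.3, 12.5 and 11.3 in ko, a spread of 1.11-fold over the 6 libraries. Adam8 stood at 81.5, 105 and 93.5 in wt and 94.1, 101 and 92.7 in ko, and Mmp8 at 8.56, 10.9 and 11.7 in wt and 9.98, 10.5 and 10.1 in ko. The groups of all 3 overlapped on this scale. Setting library sizes to the macrophage list moved the median of all tested genes to 0.59. The log2 fold changes of Adam8, Adam15, Mmp8 and Mmp12 were then 0.04, 0.08, -0.0253 and 0.05, thus below that median. The 10 neutrophil markers, of which 9 were tested and 5 had a lower ko level at an unadjusted p below 0.05, had a median of -0.83. The part of either cell type in the levels of Adam8 and Mmp8 was not tested beyond these values.

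Genes that act together with these enzymes were read as 3 lists. Of 25 partners and regulators 16 were tested, and 6 had a lower ko level at an unadjusted p below 0.05 and 0 a higher one (8.31% and 6.9% of all genes). They were Lrp1 (log2 fold change -0.77), the endocytic receptor that clears MMPs and TIMPs, the proprotein convertase Furin (-0.37), which removes the prodomain of ADAMs and membrane-type MMPs, Rhbdf2 (-0.44) and Frmd8 (-0.43), which carry and stabilise Adam17, and the tetraspanins Tspan5 (-0.56) and Tspan14 (-0.54), which escort Adam10. The median of the list was -0.15. Reck, a membrane inhibitor of MMPs, had a log2 fold change of 1.05 (SE 0.67) on 7 to 52 counts. Rhbdf1, the relative of Rhbdf2, went the other way from it, at 1.07 (SE 0.59). Of the other convertases tested, Pcsk6 had an estimate of 1.32 (SE 0.74, on 4 to 114 counts) and Pcsk7 of -0.37 (SE 0.18).

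Of 30 membrane proteins shed by ADAMs, 28 were tested, 2 had a higher ko level at an unadjusted p below 0.05 and 8 a lower one, where 6.9% and 8.31% of all tested genes did, so the share of higher ones is near that of the whole table. Tnf, the classical Adam17 substrate, had 393, 541 and 393 CPM in wt and 705, 711 and 770.0 CPM in ko (log2 fold change 0.72, SE 0.16, adjusted p = 0.328). All ko libraries were above all wt libraries. The growth factor Hbegf had 20.2, 28.5 and 22.3 CPM in wt and 38.9, 36.4 and 31.6 CPM in ko (log2 fold change 0.59, SE 0.17). Among those with lower ko levels were App, Cd163, Csf1r, Il6ra, Notch2, Tnfrsf1a and Tnfrsf1b, with log2 fold changes from -0.35 for Notch2 to -1.05 for Cd163. Csf1r is also on the macrophage list. The median of the shed proteins was -0.15.

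Of 22 matrix substrates 18 were tested and 2, Col1a1 and Col1a2, which are also fibroblast markers, had a higher ko level at an unadjusted p below 0.05, with 0 lower (6.9% and 8.31% of all tested genes). The median was 1.04. The groups were without overlap in 1 gene, Lama4, higher in ko, where 13.3% of all tested genes were. Several were far lower in wt replicate 1 than in the other wt libraries. Col3a1 had 19.0, 426 and 245 CPM in wt, and Nid1 had 5.54, 84.2 and 54.5 CPM. Fn1 and Vwf were highest in wt replicate 1. Fibronectin (Fn1) and versican (Vcan), the latter a substrate of Adamts1 and Adamts4, had estimates of -0.48 (SE 0.25) and -0.37 (SE 0.28). Hspg2, which encodes the basement membrane proteoglycan perlecan, had 12.7, 206 and 137 CPM in wt and 305, 283 and 159 CPM in ko, and was lowest in wt replicate 1. No gene of the 3 lists passed at an adjusted p below 0.05.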

How the data were processed

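Gene counts and FPKM values were used as the authors deposited them, in a table of each kind with a column for each of 6 libraries (3 wt, 3 ko per the labels). Reads were placed on mm10 per the submitters' processing notes. The aligner, counter and annotation are not given in the sources used here, nor is the use of strand. Per the study's methods SMARTer Ultra Low Input libraries, which carry no strand mark, were prepared from sorted macrophages, whereas the labels describe small RNA of tumor tissue. The deposited FPKM fitted the deposited counts with 1 length per gene, within 0.1%, for 13698 of 13698 genes checked. Total counts were 36550775 to 38147320 per library, and 3 counts, used as the detection floor, equal 0.0716 to 0.0846 CPM.

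Counts were tested with edgeR 4.0.16 (filterByExpr, TMM factors, quasi-likelihood test, R 4.3.3) over 13884 genes with Benjamini-Hochberg adjustment. Log2 fold changes are ko minus wt. CPM are TMM-scaled, and levels are compared between genes only in FPKM. Alternatives were RLE factors, DESeq2 1.42.0, no filter, at least 10 counts in every library, limma 3.58.1 with trend on log2(FPKM + 1), each library left out, the replicate number as a block, and, chosen after the values were seen, library sizes from the macrophage list and ratios to the marker lists. The edgeR step was tested on simulated data. The members, gene lists and tests were chosen with earlier results of these data known. Named with values were the members with at least 50 counts in every library, every Timp, a fixed set of known enzymes (Mmp2, Mmp3, Mmp8, Mmp9, Mmp12, Mmp13, Mmp14, Adam8, Adam10, Adam17, Adamts1, Adamts4 and Adamts5), and tested members whose groups do not overlap. Other members, and the partner, substrate and marker genes with values, were named after their values were seen. A planned split of the ADAMs by a protein motif was not made. Promoters came from RefSeq (GRCm38.p6), with 43 of 65 members matched, and gene positions from GENCODE M21.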

Additional observations from a re-analysis of the deposited data

How the results depend on the processing

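No member passed an adjusted p below 0.05 under any setting, and the smallest adjusted p of a named member was 0.0993. At an unadjusted p below 0.05 the count of higher and lower members, 4 and 3, was 4 and 3 with RLE factors, DESeq2 and the minimum of 10 counts, and 5 and 4 with no filter. It was 10 and 2 with limma on FPKM and 6 and 0 with macrophage list scaling. With the replicate block it was 4 and 2. Equal totals did not always stand for the same members. DESeq2 had Mmp3 in place of Adamts1, and the minimum of 10 counts had Mmp28 in place of Timp3, which it left out. The block had Mmp12 among the lower members but neither Adam8 nor Adam15. The members tested numbered 65 with DESeq2 and no filter, 32 with the minimum of 10 counts, 39 to 41 with a library left out and 38 otherwise. With limma the median of all tested genes was 0.09. The share of all genes under each alternative is not given here, so these counts and those below are not read as a result about the members. The deviations of same-numbered libraries from their group means correlated at -0.241, 0.0605 and -0.337. These values show no pairing by number, but with 3 libraries a group they cannot exclude a shared batch. Leaving out each library gave 1 to 6 higher and 0 to 5 lower members (1 and 1 without ko replicate 2, 2 and 0 without ko replicate 1, 3 and 5 without ko replicate 3, 2 and 3 without wt replicate 3, 6 and 2 without wt replicate 2). Members without overlap then numbered 6 to 13 higher and 4 to 8 lower (13 and 6 without wt replicate 2, 12 and 6 without ko replicate 3, 6 and 8 without wt replicate 1). With fewer libraries a group, non-overlap is more frequent by construction. Macrophage list scaling, where non-overlap counts were 10 and 0, moves the median of all tested genes from 0.02 to 0.59.

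Of 374 recomputed log2 fold changes of the 29 named members tested, 342 kept their direction and 32 reversed. With macrophage list scaling 13 reversed, to 0.0401 for Adam8, 0.40 for Mmp19, 0.0794 for Adam15, 0.0532 for Mmp12, 0.46 for Mmp14, 0.41 for Adam9, 0.45 for Adam17 and Adam10, 0.20 for Mmp9 and Mmp13, 0.15 for Adamts10, 0.26 for Mmp25 and 0.33 for Adamtsl4, all below that median. With limma 5 reversed, to 0.0337 for Mmp19, 0.10 for Mmp14, 0.0794 for Adam9, 0.0622 for Adam17 and 0.11 for Adam10. Over the 6 leave-outs the range crossed 0 for 9 members, from -0.30 to 0.0658 for Mmp19, -0.21 to 0.14 for Mmp14, -0.26 to 0.0375 for Adam9, -0.22 to 0.11 for Adam10, -0.0395 to 0.36 for Timp2, -0.16 to 0.39 for Timp1, -0.13 to 0.44 for Adam19, -0.0731 to 0.43 for Adamtsl5 and -0.024 to 0.60 for Adamts6. The cause was not tested. Adamts1 ranged from 1.24 to 2.54, Adamts14 from 1.12 to 1.83, Adam30 from 1.40 to 1.71, Timp3 from 2.11 to 5.44, Adam8 from -0.66 to -0.36 and Mmp8 from -0.74 to -0.39. Depth left 27 members untested, with no more than 30 counts in any library.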

Other observations

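Adam11 and Adam23, ADAMs without protease activity that are known from the nervous system, were lowest in wt replicate 2 and not in wt replicate 1. Adam11 had 174, 26 and 135 counts in the wt libraries and 107, 139 and 135 counts in the libraries labelled ko. Adam23 had 133, 31 and 147 counts in wt and 84, 123 and 148 counts in ko. Both had estimates near 0, 0.08 (SE 0.59) for Adam11 and 0.09 (SE 0.55) for Adam23.

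Among members too low to be tested, Mmp15, Adamts12, Mmp24 and Adam12 had 0 counts in wt replicate 1 and at least 1 count in each of the other libraries. Adam12, an ADAM of mesenchymal cells, had 0, 5 and 6 counts in wt and 7, 18 and 1 counts in ko. Adamts12 had 0, 10 and 3 counts in wt and 12, 9 and 15 counts in ko. Adam22 had 2, 2 and 4 counts in wt and 8, 6 and 6 counts in ko, too few to place it.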
